A study of Zea mays and Triticum urartu with 3 samples.

Results

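The loci described here lay in 10 windows of 30 Mb, 1 on each maize chromosome, that stand in for the pericentromere. A locus was a member when its midpoint fell inside the window, which spanned 113 to 143 Mb on chromosome 1, 82 to 112 Mb on chromosome 2, 65 to 95 Mb on chromosome 3, 94 to 124 Mb on chromosome 4 and 98 to 128 Mb on chromosome 5. On the remaining chromosomes it spanned 37 to 67 Mb on chromosome 6, 50 to 80 Mb on chromosome 7, 36 to 66 Mb on chromosome 8, 41 to 71 Mb on chromosome 9 and 32 to 62 Mb on chromosome 10 (build B73 RefGen_v4, per the labels). This gave 2721 of 45374 loci in the anti-CENH3 RIP table and 2777 of 46011 loci in the input table. With loci that occur in both tables counted once, there were 3050 members of 47421 loci. The windows covered 14.2% of the 2105.9 Mb between the start of each chromosome and its last listed base. In 10 of 10 windows the central 10 Mb was the stretch with the fewest annotated loci in these same tables, so the low locus density near the centre comes from how the windows were placed.

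A centromere is the chromosome region on which the kinetochore assembles, and in plants it is marked by nucleosomes that hold CENH3, the centromeric variant of histone H3. Maize centromeres consist of the satellite repeat CentC and of centromeric retrotransposons of the CRM families, and they are flanked by gene-poor pericentromeric heterochromatin in which retrotransposons are dense. RNA transcribed from centromeric repeats has been found bound to centromeric chromatin in several plants and animals. RNA immunoprecipitation (RIP) recovers RNA that is held by chromatin carrying a chosen protein.

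The series asked which RNA is held by CENH3 chromatin. The B73 RIP library came from young leaves of B73, the maize inbred line of the reference genome, and was precipitated with an anti-CENH3 antibody. The B73 input library came from young leaves of the same line, and its labels name no antibody, although their extraction text, which is shared by all samples of the series, describes the precipitation. With 1 library in each group there was no replicate check, and no p-value is given. The leaf label could not be checked against marker genes, because the tables give identifiers without gene names. Identifiers of the loci assembled in RIP start with B73-RAC rather than with the title of the sample. The RIP table listed 0 chloroplast loci, while 54 were listed for input, and whether both tables were filtered alike was not tested.

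Each table listed annotated genes (Zm00001d identifiers) beside loci assembled from the reads of that library. In the windows, the RIP table listed 1655 annotated and 1066 assembled loci, and for input 1924 annotated and 853 assembled loci were listed. The deposited unit was FPKM, fragments per kilobase of transcript, scaled to the mapped fragments of its own library. From each FPKM and its upper confidence limit, the underlying fragment number was worked out; it is called implied fragments, or fragments for short, and is not scaled to the library. Summed over listed loci of the whole table, these came to 472295 in RIP and 744101 in input, and such sums are not the number of reads sequenced. Intervals of shares and fragments below are exact 95% intervals and cover counting error only.

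The windows held few loci, and fewer of these were above 0 than in the arms, which are the rest of the same chromosome. In RIP there were 9.07 listed loci per Mb in the windows and 23.3 in the arms, and in input 9.26 and 23.6. FPKM was above 0 at 1446 window loci in RIP, or 53.1% (51.2 to 55.0), against 61.7% of the arm loci. In input it was above 0 at 1070 window loci, or 38.5% (36.7 to 40.4), against 41.3% of the arm loci. Annotated window loci were above 0 more rarely, at 34.5% in RIP and 16.8% in input, with 46.3% and 23.1% in the arms. Among loci above 0, the median level was higher in the windows than in the arms in both libraries. It was 0.155 FPKM in the windows and 0.0878 FPKM in the arms in RIP, and 4.67 FPKM in the windows and 2.36 FPKM in the arms in input. At least 10 fragments were found at 463 window loci in RIP and at 512 in input.

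The share of nuclear fragments that fell in the windows was 7.87% in RIP (7.79 to 7.95, 35903 of 456321) and 53.8% in input (53.7 to 53.9, 385462 of 716933). The input value rested on 1 assembled locus of 10105 bp in the chromosome 10 window, chr10:35055011-35065115, which had 50621 FPKM and about 369288 fragments. It held 95.8% of the input fragments of all windows and 49.6% of those of the input library, and no RIP locus overlapped it. Without the highest locus of each library, the window share was 8.30% in RIP and 4.65% in input. The highest RIP locus of the library lay in an arm of chromosome 7. Without the highest locus of each window and of each chromosome's arms, the shares were 6.52% in RIP and 5.40% in input. So the window share was lower in RIP with all loci and higher in RIP under either removal.

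The RIP fragments of the windows were concentrated in a few loci. The highest locus held 13.2% and the highest 10 held 46.6% of them, and 12 loci were enough for 50%. In input without its highest locus, the highest 10 held 18.9%, and 139 loci were needed for 50%. In the arms it took 66 loci in RIP and 201 in input. The highest 10 arm loci held 30.4% in RIP and 35.01% in input. Loci above 0 numbered 1446 in the windows and 26018 in the arms in RIP, and 1070 and 17643 in input. With such unequal numbers, these values do not show whether windows or arms were the more concentrated. Loci of 100 or more fragments numbered 37 in the RIP windows and 14 in the input windows.

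By chromosome, the ratio of window to arm fragments was higher in RIP than in input on 6 of 10 chromosomes, and the median log2 difference was 0.40 (95% rank interval over chromosomes −0.95 to 1.95). Chromosome 9 had the largest positive value, 2.72, with 7353 window fragments in RIP and 1348 in input. Chromosome 1 followed at 1.95, with 6605 window fragments in RIP and 1297 in input, and chromosome 2 at 1.07, with 4620 in RIP and 1954 in input. These are the chromosomes whose windows held the 4 highest RIP loci. On chromosome 2 an input arm locus also weighed on the value. The arms there held 63919 input fragments, and 26260 without their highest locus. The value was −0.95 on chromosome 5, −0.92 on chromosome 7 and −0.10 on chromosome 6. It was −7.30 on chromosome 10, where the single input locus lies, and 1.25 there without the highest locus of each library. That same removal gave 8 of 10 chromosomes above 0 with a median of 0.61, of which chromosome 7 was at 0.0049. Without the highest locus of each window and of each chromosome's arms, 5 of 10 were above 0 and the median was 0.05 (−0.31 to 1.39). Chromosomes 1, 4 and 9 were the highest there, at 1.39, 1.07 and 1.55, and chromosome 2 was at −0.08. The sign differed between chromosomes, and the rank interval of the median included 0 in all 3 settings.

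**Figure D1:**
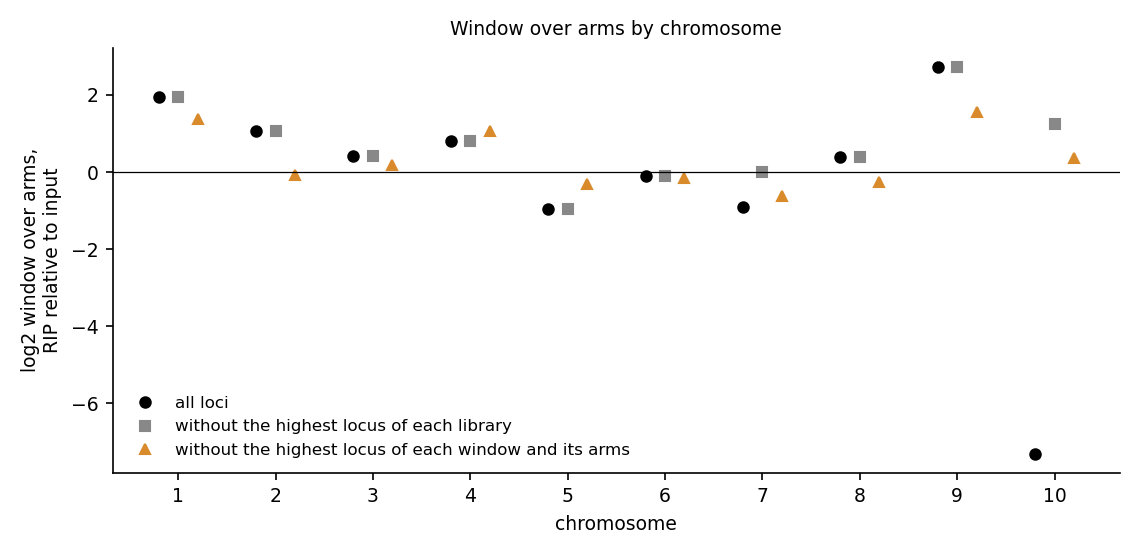
Log2 ratio of window to arm fragments in RIP relative to input on each of the 10 chromosomes, with all loci (circles), without the highest locus of each library (squares) and without the highest locus of each window and of each chromosome's arms (triangles). Chromosomes 1, 3, 4 and 9 were above 0 in all 3 settings, and chromosome 10 was at −7.30 with all loci and at 1.25 and 0.36 in the other settings.

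The windows were then read in steps of 2 Mb, with the log2 ratio of RIP to input fragments in each step set against that of the same chromosome's arms. Of 150 steps, 142 had 20 or more fragments in both libraries together. At least 2-fold higher in RIP than the arms were 40 steps, or 28.2%, while the background over all 1049 window and arm steps was 13.5%. At least 2-fold lower were 36 steps, or 25.4%, while the background was 18.3%. The shares in the arm steps were 11.2% higher and 17.2% lower. The window steps were thus spread to both sides, and their median relative to the summed arms was 0.01. The arm steps had a median of −0.18 on the same scale, so the typical window step lay above the typical arm step. They also held fewer fragments, with a median of 170 in a window step and 371 in an arm step. Among steps of 79.6 to 332 fragments, 18.9% of the window steps were higher and 23.0% lower, with 7.01% and 16.4% of the arm steps. In 25 of the 40 higher steps a single locus held over 50% of the RIP fragments, and in 12 of the 36 lower steps a single locus held over 50% of the input fragments.

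Higher and lower steps were not spread alike over chromosomes. Chromosome 5 had 0 higher and 9 lower steps, but 1 arm locus weighed on that count: without the highest arm locus of each library it had 1 higher and 5 lower steps, and against the median of its arm steps 4 higher and 4 lower. Over all chromosomes these references gave 39 higher and 33 lower steps, and 42 higher and 25 lower. No share over all steps is given for these references, so their counts are not read as results about the windows. Chromosome 7 had 1 higher and 4 lower steps. Chromosome 4 had 7 higher and 3 lower steps, and chromosomes 9 and 10 had 6 higher and 1 lower step each. On chromosome 9 the count was 6 higher and 2 lower without the highest arm locus, and 4 higher and 2 lower against the median of its arm steps. Chromosome 2 had 4 higher and 2 lower steps, both against its summed arms and against the median of its arm steps. Without the highest arm locus of each library it had 3 higher and 5 lower. The highest step was 137 to 139 Mb on chromosome 1, with 4853 RIP fragments and 7 input fragments, a log2 difference from the arms of 8.94. Its 2 leading loci lay 54.2 kb apart. The step from 133 to 135 Mb on the same chromosome had 279.6 RIP and 2.00 input fragments, and it held 13 RIP loci above 0, of which the highest had 27.4% of the fragments. The step from 57 to 59 Mb on chromosome 9 had 5034 RIP and 79.2 input fragments, and 1 locus held 94.1% of the RIP fragments. The step from 48 to 50 Mb on chromosome 8 had 1710 RIP and 42.1 input fragments. The step from 106 to 108 Mb on chromosome 4 had 38.4 RIP fragments and was listed at 0 in input.

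The lowest step was 34 to 36 Mb on chromosome 10, which contains the highest input locus and had 48.4 RIP and 369338 input fragments. Without that locus, the input held 50.8 fragments there. Next came a pair of neighbouring steps on chromosome 5. The step from 122 to 124 Mb had 81.4 RIP and 599 input fragments, and the step from 124 to 126 Mb had 85.8 RIP and 326 input fragments, which were 4.16 and 3.20 log2 units below the arms. At 122 to 124 Mb, 84.9% of the input fragments came from 1 locus, and without it the input held 90.6 fragments. The step from 69 to 71 Mb on chromosome 3 had 22 RIP and 98 input fragments, and that from 110 to 112 Mb on chromosome 4 had 28 RIP and 154 input fragments.

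**Figure D2:**
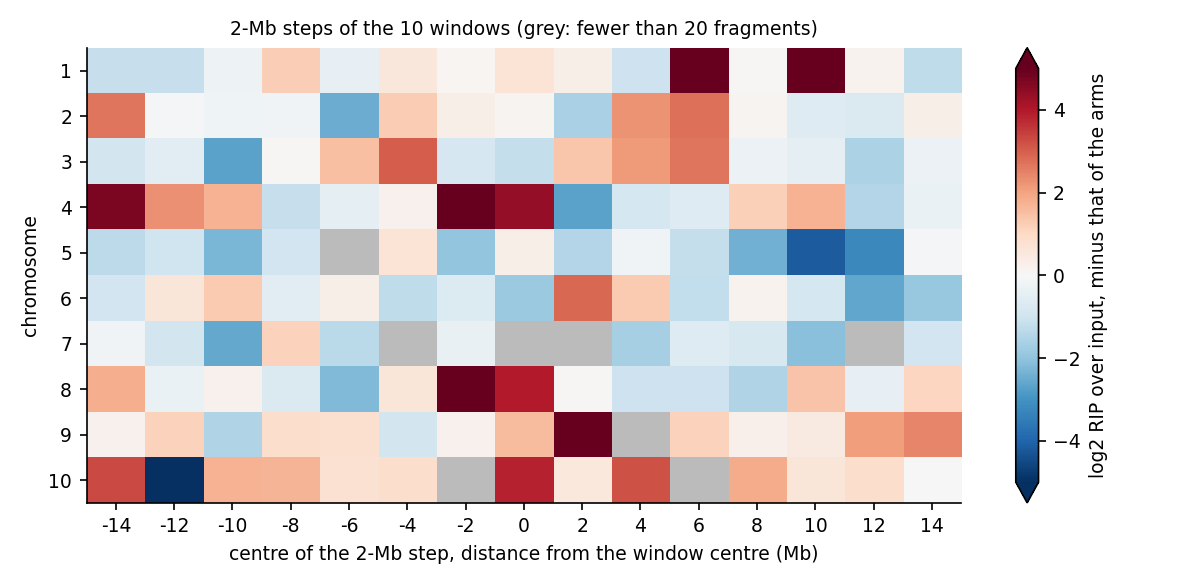
Log2 ratio of RIP to input fragments in each 2-Mb step of the 10 windows, minus that of the arms of the same chromosome, by distance of the step from the window centre; red is higher in RIP and blue lower, colours end at 5 and −5, and grey steps held fewer than 20 fragments. The 40 higher and 36 lower steps occur at all distances, and the row of chromosome 5 has no higher step against its summed arms.

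Along the windows, RIP fragments were densest at the centre, and input fragments were level. The central 10 Mb of the 10 windows held 161 RIP fragments per Mb and 51.5 input fragments per Mb. The outer 10 Mb on both sides held 98.9 RIP fragments per Mb and, without the highest input locus, 55.1 input fragments per Mb. Of 45 central steps, 15 were higher and 10 lower, with a median of 0.30 relative to the arms. Of 97 outer steps, 25 were higher and 26 lower, with a median of −0.27. The RIP slope rested on few loci. Without the highest locus of each window, 8060 RIP and 4739 input fragments remained over the central 100 Mb of all windows, and 14228 RIP and 8889 input fragments over the outer 200 Mb.

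Across the window limits RIP was level and input was not. From 10 to 15 Mb from the centre there were 74.6 RIP and 54.4 input fragments per Mb, and from 15 to 25 Mb there were 74.5 in RIP and 120 in input. From 25 to 50 Mb there were 181 in RIP and 191 in input. Farther than 75 Mb from the centre there were 306 RIP and 182 input fragments per Mb, without the highest locus of each library. RIP was thus above input within 15 Mb of the centre and beyond 75 Mb, and below it between these distances. The nuclear totals behind these densities were 432766 fragments in RIP and 347645 in input.

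**Figure D3:**
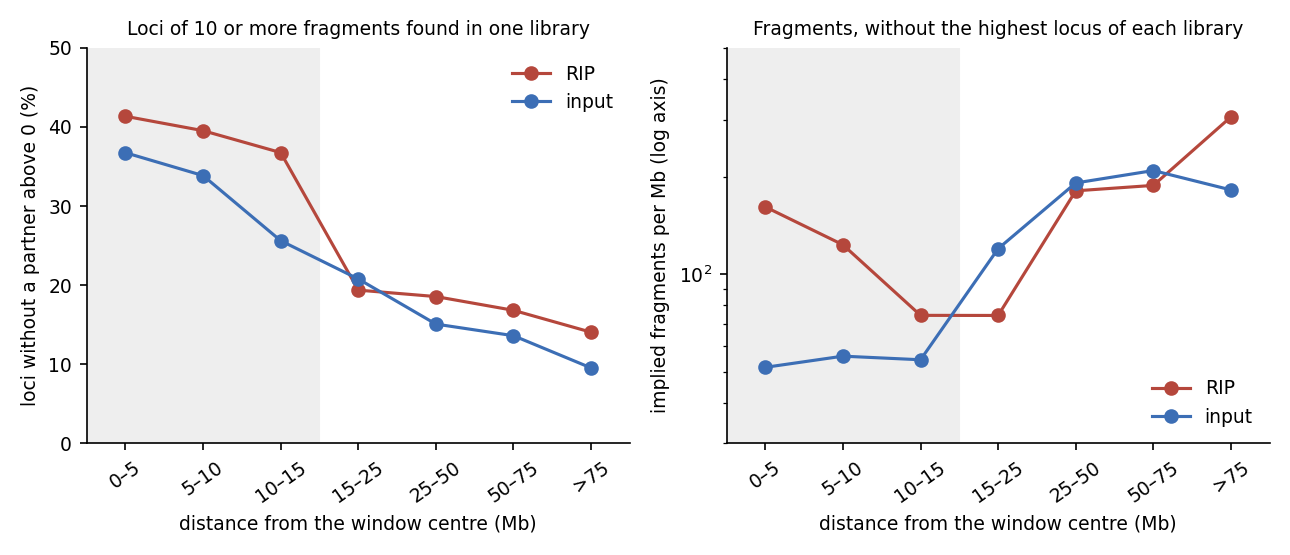
Left, share of loci with 10 or more fragments that overlap no locus above 0 in the other library, and right, implied fragments per Mb on a log axis without the highest locus of each library, both by distance from the window centre (shaded, inside the windows). The share of such loci was 41.3% in RIP and 36.7% in input within 5 Mb of the centre, and 14.1% in RIP and 9.54% in input beyond 75 Mb.

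The RIP loci that carried these sums were mostly assembled ones, and the median span of those with 100 or more fragments was 2716 bp. The highest was chr9:57391597-57393895, 1.39 Mb from the window centre, with 4735 fragments (4601 to 4872) and 156 FPKM. No input locus overlapped it. Next were chr1:137111656-137116433, with 3270 fragments and 49.1 FPKM, and chr1:137052994-137057406, with 1562 fragments and 25.5 FPKM. Neither had an overlapping input locus, and together with the first they held 26.6% of the RIP fragments of all windows. The same held for chr8:48874623-48875754, with 1141 fragments and 86.4 FPKM, and for chr4:109453691-109459424, with 757 fragments and 9.39 FPKM. All 5 were seen in RIP alone.

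Other high RIP loci were also seen in input, with fewer fragments. The locus chr2:83437160-83438684 had 1388 fragments in RIP and 118 in input, and chr2:100186441-100187797 had 1050 in RIP and 160 in input. Both were listed as assembled in RIP and as annotated in input. The annotated gene Zm00001d001349 (chr6:53614251-53619902) had 955 fragments in RIP and 16 in input, and levels of 118 FPKM in RIP and 25.3 FPKM in input. The gene Zm00001d046170 (chr9:68851094-68856482) had 1250 fragments in RIP and 358 in input. Its levels ran the other way, at 6.56 FPKM in RIP and 132 FPKM in input. FPKM is scaled to all fragments of its own library and to the transcripts assembled in it, so the sign of a difference at a locus can depend on the scale. Annotated genes were also among the highest at chr2:103354454-103357914 with 640 fragments in RIP and 61.8 in input, and at chr4:96971362-97109426 with 621 in RIP and 43.8 in input. Of the 37 RIP loci with 100 or more fragments, which lay on 10 of 10 chromosomes, 17 were within the central 10 Mb and 9 lay within 100 kb of another. For comparison, 179 of the 463 RIP window loci with 10 or more fragments were within the central 10 Mb.

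High input loci were fewer and, apart from the one on chromosome 10, lower. The locus chr4:115368623-115371039 had 399 fragments in RIP and 557 in input, and chr1:132949477-132950099 had 220 in RIP and 328 in input. At chr10:49667977-49670160 there were 162 fragments in RIP and 354 in input. These 3 were high in both libraries. The locus chr5:123917296-123923030 had 5.05 fragments in RIP and 509 in input, and its levels were 0.280 FPKM in RIP and 198 FPKM in input. At chr6:64831967-64832901 the RIP table listed an annotated locus at 0, and input had 270 fragments. At chr9:45945786-45946440 an annotated RIP locus was likewise listed at 0, and input had 162 fragments. No RIP locus was listed over chr5:124886935-124887579, with 135 input fragments, or over chr7:58188601-58190684, with 120. Of the 14 input loci with 100 or more fragments, 3 lay in the central 10 Mb, where 196 of the 512 input window loci with 10 or more fragments lay.

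**Figure D4:**
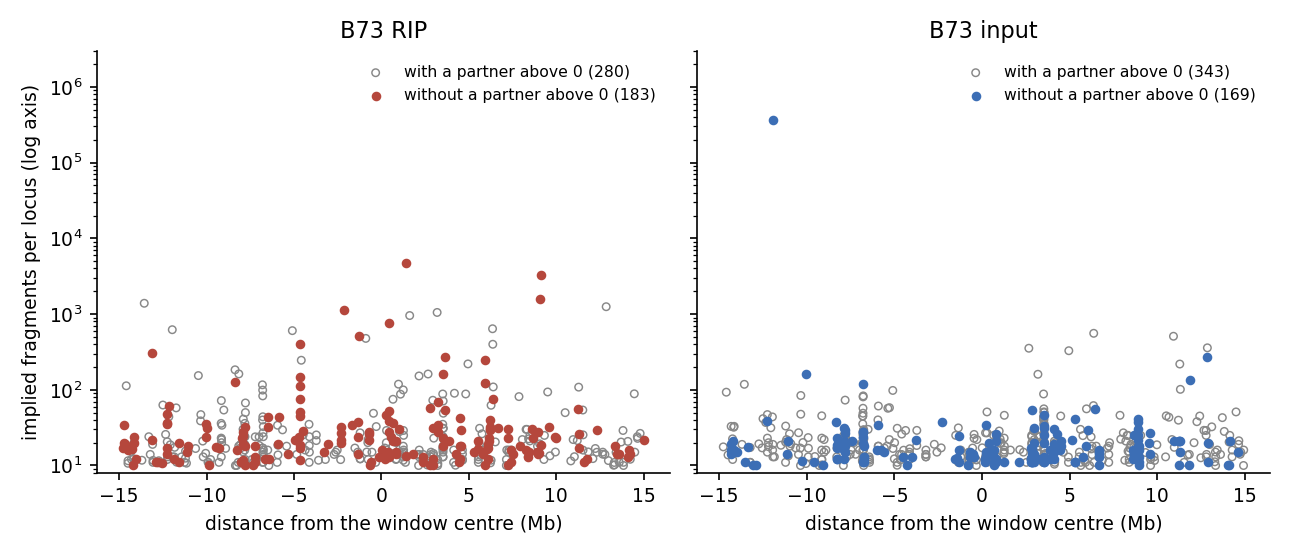
Implied fragments (log axis) of each window locus with 10 or more fragments by its distance from the window centre, in RIP (left, 463 loci) and input (right, 512 loci); filled points overlap no locus above 0 in the other library. The highest filled RIP points had 4735, 3270 and 1562 fragments, and 1 input locus stood at about 369288.

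Loci seen in 1 library alone were more frequent in the windows than in the arms, in both libraries. Of 463 RIP window loci with 10 or more fragments, 183 overlapped no input locus above 0, or 39.5% (35.04 to 44.14), while the background over all RIP loci was 17.9% and the arms had 15.9%. Of 512 input window loci, 169 overlapped no RIP locus above 0, or 33.0% (28.9 to 37.3), while the background over all input loci was 13.9% and the arms had 12.2%. The RIP share was higher in the window than in the arms on 10 of 10 chromosomes, with 26.5% to 52.9% in the windows. The input share was higher in the window on 8 of 10 chromosomes, with chromosomes 1 and 6 below their arms. Nearly all such loci were assembled ones, 171 of 183 in RIP and 166 of 169 in input. Most window loci of that size were assembled in any case, 410 of 463 in RIP and 465 of 512 in input. Of the 183 RIP loci, 22 lay over an input locus listed at 0, with 268 of 767 in the arms. Of the 169 input loci, 11 lay over a RIP locus listed at 0, with 145 of 720 in the arms. Over the remaining ones the other library listed no locus. Each library had its own assembled loci, so whether RNA was absent there was not tested. Those without a partner were short, with a median span of 1098 bp in RIP and 527 bp in input, where loci with a partner had 1911 bp and 1511 bp. In the arms they were short too, with 1250 bp in RIP and 501 bp in input, where loci with a partner had 3706.5 bp and 4296 bp. An overlap is less likely where loci are fewer or shorter. Input listed 9.26 loci per Mb in the windows and 23.6 in the arms, and RIP 9.07 and 23.3. Whether this alone gave the difference between windows and arms was not tested.

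The libraries differed in how much these loci held. In RIP they carried 53.8% of the fragments of window loci with 10 or more fragments, and 5.09% of those of arm loci. In input they carried 97.4% in the windows, which is the locus on chromosome 10, and 28.1% in the arms. Without the highest locus of the windows and of the arms in each library, the shares were 46.0% in the windows and 5.45% in the arms in RIP, and 26.5% in the windows and 17.0% in the arms in input. Without the 3 highest, they were 34.8% and 6.28% in RIP, and 28.7% and 19.8% in input. At 100 or more fragments, 15 of 37 RIP window loci were seen in RIP alone, or 40.5% (24.8 to 57.9), against 8 of 261 in the arms, or 3.07% (1.33 to 5.95). The windows thus held 15 of the 23 such RIP loci of the genome, or 65.2%. Of these 15, 0 lay over an input locus listed at 0, so input listed no locus at any of them. In input, 5 of 14 window loci of that size were seen in input alone, or 35.7% (12.8 to 64.9), against 12.1% in the arms. At 50 or more fragments the RIP share was 48.4% within 5 Mb of the centre (15 of 31), 27.3% from 5 to 10 Mb (6 of 22) and 23.1% from 10 to 15 Mb (3 of 13). From 15 to 25 Mb it was 0 of 35 loci, and beyond 75 Mb it was 9.58% (25 of 261). The input share of that size was 1 of 8, 2 of 13 and 4 of 12 loci in the same 3 zones of the windows. These shares and their intervals count neighbouring loci one by one, although such loci need not be independent. Of the 37 RIP window loci with 100 or more fragments, 9 lay within 100 kb of another.

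Some of these loci lay side by side. Runs were counted after the positions had been plotted, as 5 or more loci of 10 or more fragments without a partner, with gaps of at most 100 kb. Input had 12 such runs in the windows, which held 74 of the 169 loci, or 43.8%, and in the arms the runs held 20.1%. RIP had 3 such runs, which held 19 of the 183 loci, or 10.4%, and in the arms the runs held 2.74%. The input runs were made of short loci. At chr2:99810163-99840434, 10 loci of 11 to 54 fragments lay within 30.3 kb, and at chr8:59886809-59904818, 7 loci of 17 to 40.8 fragments lay within 18.0 kb. RIP had no locus above 0 over the run on chromosome 8. The RIP run with the most loci, chr5:108319923-108360374, held 9 loci of 11.8 to 406 fragments within 40.5 kb and 886 fragments in all, and input had none there. The run chr4:109361316-109529709 held 5 loci with 886 fragments, of which 757 came from 1 locus, and input again had none. Runs were not particular to loci without a partner. Among loci with a partner, runs counted in the same way held 22.1% of the window loci and 9.33% of the arm loci in RIP. In input they held 23.6% and 13.4%. In the RIP windows, runs thus held a smaller share of the loci without a partner than of those with one, and in the input windows a larger share. Runs were counted within each class, and the classes differed in number, with 183 and 280 loci in RIP and 169 and 343 in input. Fewer loci form runs less easily, so these shares do not compare the classes on equal terms.

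Where a locus was listed in both tables, the median of the window pairs lay close to that of the arm pairs. There were 2448 window pairs of the 43964 pairs of both tables, and 2384 of them had identical coordinates. RIP alone was above 0 at 532 window pairs, or 21.7%, input alone at 101, or 4.13%, both at 641 and neither at 1174. In the arms these shares were 25.4% for RIP alone and 3.80% for input alone. With 20 or more fragments in sum there were 228 window pairs, with a median log2 ratio of RIP to input fragments of −0.32 (rank interval −0.52 to −0.09). The median was −0.31 over 4129 arm pairs and −0.30 over all 4386 pairs, so window minus arms was −0.01 (−0.21 to 0.21). Ratios that exceeded this overall median 2-fold or more were found at 53 window pairs, or 23.2%, against a background of 24.1%. Ratios that lay 2-fold or more under it were found at 49, or 21.5%, against a background of 20.4%. The window median was above the arm median on 5 of 10 chromosomes, most of all on chromosome 9, where 20 window pairs had a median of 0.73 and 293 arm pairs −0.52.

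The ends of that list were far apart. The annotated locus chr6:39829333-39830358 had 61.0 fragments in RIP and was listed at 0 in input, and chr6:46130267-46133225 had 44.0 in RIP and was listed at 0 in input. At chr5:112106684-112107278 there were 477 fragments in RIP and 7.09 in input, with levels of 76.4 FPKM in RIP and 7.84 FPKM in input. This locus was listed as assembled in RIP and as annotated in input. At the low end, besides the 3 input loci named above that RIP lacked or nearly lacked, chr8:57438030-57440184 was listed at 0 in RIP and had 55.8 fragments in input, and chr3:85292411-85294313 was listed at 0 in RIP and had 41.0 in input. Both ends held pairs that 1 table listed at 0, 6 of 228 in RIP and 4 of 228 in input. The scale decided the sign at many pairs. More fragments in RIP were found at 93 of the 228 pairs, and at 72 of these the FPKM was lower in RIP. On the FPKM scale with a pseudocount of 1 FPKM, the 414 pairs with a mean of at least 1 had a median log2 ratio of −2.10 in the windows. The arms had −2.06. The median levels of these window pairs were 0.224 FPKM in RIP and 4.74 FPKM in input, so the pseudocount exceeded the RIP level and made the ratio smaller in size.

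**Figure D5:**
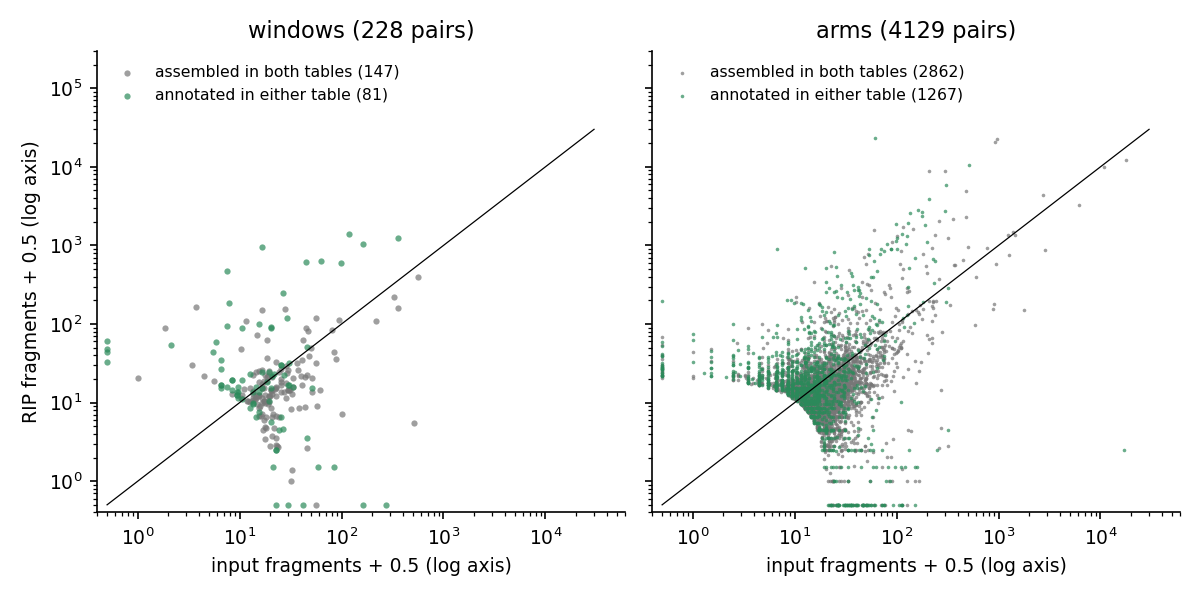
Implied fragments of each pair of loci with 20 or more in sum, RIP on the vertical and input on the horizontal axis (both log, 0.5 added), in the windows (left, 228 pairs) and arms (right, 4129 pairs); the line marks equal numbers. Pairs annotated in either table (green) had a median log2 ratio of 0.33 in the windows, and pairs annotated in neither (grey) had −0.55.

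Annotated and assembled loci differed in both the windows and the arms. The 81 window pairs that were annotated in either table had a median log2 fragment ratio of 0.33 (0.05 to 0.89). Of these, 34 exceeded the overall median 2-fold or more, or 42.0%, and 16 lay as far under it, or 19.8%. The background over all pairs annotated in either table was 40.3% above and 17.9% below. The 147 window pairs annotated in neither had a median of −0.55 (−0.73 to −0.34), with 19 above, or 12.9%, and 33 below, or 22.4%. The background over all pairs annotated in neither was 16.8% above and 21.6% below. In the arms the medians were 0.24 and −0.48. Sums over all loci were set against the arms in turn, which is another quantity than the ratio of a pair. The window-over-arms value of RIP relative to input had a median over chromosomes of −0.59 for annotated loci (−1.07 to 2.14, 3 of 10 above 0), and of 0.63 for assembled loci (−1.29 to 2.28, 6 of 10 above 0). Both intervals included 0. The listing itself differed between the tables, since 340 window pairs were assembled in RIP and annotated in input, and 76 the reverse. With a locus counted as annotated when either table did so, the medians were −0.01 for annotated and 0.57 for the remaining loci. None of the 3 microRNA genes listed in the windows was above 0 in RIP or input.

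Of the genes that the study named as centromeric, Zm00001d030471 and Zm00001d004256 lay in a window, and a further one, Zm00001d004248, was not analysed here. The study lists Zm00001d030471 both as active and as unexpressed. Zm00001d004256 (chr2:97279244-97293487), 0.286 Mb from the window centre, had 47.0 fragments in RIP (34.5 to 62.5) and 3.35 FPKM, and was listed at 0 in input. Zm00001d030471 (chr1:135204206-135245514), 7.22 Mb from the centre, was listed at 0 in input under its own identifier. Loci lying inside it held 63.9 fragments over 4 loci above 0 in RIP, and 43.0 fragments over 3 loci above 0 in input. Fragments were thus seen in RIP alone at the gene on chromosome 2, and in both libraries inside the gene on chromosome 1. Inside that gene they lay mostly at different loci. The RIP loci of 30.5, 22.9 and 10 fragments there overlapped no input locus above 0.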

How the data were processed

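The authors deposited 1 table of FPKM per library, with confidence limits of each FPKM. Per the submitters' processing notes, CASAVA, TopHat2 2.0.12 and Cufflinks were used with build B73 RefGen_v4. For Cufflinks, no version is given in the sources used here. Implied fragments were (2 × FPKM/(upper limit − FPKM)) squared and were whole within 0.02 at 60.7% of RIP and 68.6% of input window loci above 0. Listed starts counted from 0 and were raised by 1. Loci were paired by identifier, identical coordinates or a reciprocal overlap of at least 0.5. Log2 ratios of fragments used a pseudocount of 0.5 fragments, and those of paired FPKM used 1 FPKM unless another is given. Organellar and contig loci were left out of nuclear sums. Window positions depended in part on these tables. Members, lists, thresholds and alternatives were chosen with earlier results of these data known.

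The named loci were the 10 with the most fragments in each library, the 6 highest and 6 lowest pairs of at least 300 bp, the 5 highest loci of 1 library, the 4 highest annotated loci, the 5 highest and 5 lowest steps, and the study's centromeric genes. A few of each are printed, and at most 2 identifiers for each direction beside those genes, since 0 of 1997 window identifiers matched the reference table (NAM-5.0) and no names or sequences were used. Calculations used Python 3.11.15, pandas 2.3.3 and scipy 1.17.1 and were tested on simulated data. The wheat library was not used here.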

Additional observations from a re-analysis of the deposited data

How the results depend on the processing

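No paired analysis was possible because each group had 1 library. Of 91 results under alternatives, 70 stayed within the interval of the value reported or within 1.5 times its count, and 21 did not. The medians over chromosomes and the difference of window and arm pairs had intervals that included 0, so a change of their sign was not counted as a reversal. The window share in RIP was 8.30% without the highest locus of each library, 6.52% without the highest of each window and its arms, 8.201% for loci of at least 300 bp, 8.59% for loci of 10 or more fragments and 1.76% for summed FPKM. In input it was 4.65%, 5.40%, 55.4%, 57.6% and 5.59% under the same alternatives, and 54.4% with overlapping loci counted once. Summed FPKM without the highest locus of each library, chosen after seeing the data, gave 1.86% in RIP and 3.89% in input. RIP was thus the higher of both only for fragments with the highest loci removed. With 50 fragments in sum, 28 window pairs were above and 19 below the median of all pairs, and with no minimum 339 and 442. On the FPKM scale with a pseudocount of 1, 33 of 414 window pairs were above it and 72 below. Over all 9066 pairs, 444 were above and 1535 below. With a pseudocount of 0.1, 111 window pairs were above and 62 below. For 50 fragments, for no minimum and for a pseudocount of 0.1, no share over all pairs is given here. These counts are therefore not read as results about the windows. The share of input window loci without a RIP partner was 21.2% at 50 or more fragments and 27.2% at 5 or more, with 10.96% and 10.2% in the arms. The median over chromosomes was −0.13 for summed FPKM, against 0.40, and that of assembled loci −0.27, against 0.63. The median of the arm steps as the reference, chosen after seeing the data, gave 42 higher and 25 lower steps, with no share over all steps to set beside them. A window step held a median of 170 fragments, which limits the precision of each step. Reads that match several repeats were not analysed here.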

Other observations

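Each table also listed 356 loci on 96 unplaced contigs, and 0 of them were above 0 in RIP or input.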
